A study of Mus musculus with 28 samples.

Results

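This account sets the layer 5 pulldown of mice with chronic experimental autoimmune encephalomyelitis (EAE) against that of mice with acute EAE, across all genes. Its members are 9 of the 28 libraries of the series, taken by their labels: 4 chronic pulldown libraries and 5 acute ones. EAE is a mouse model of multiple sclerosis in which immunisation with a myelin peptide, here MOG35-55, brings on T cell inflammation of the central nervous system. The chronic mice were taken 30 days after immunisation and the acute mice 15 days after it. All mice were Glt25d2 BacTRAP animals, including the healthy ones, whose 5 pulldown libraries entered the same statistical fit, and matching input libraries exist for each group. In such mice a bacterial artificial chromosome places a tag on ribosomes under the control of Glt25d2 (now Colgalt2), a gene of projection neurons in cortical layer 5, and pulling down the tag enriches the RNA bound to their ribosomes (IP; input is the unselected RNA). The cells reached are therefore those in which this one transgene line is active. The labels give neither age nor sex. Nor do they tie each library to a mouse of its own, so the p-values reflect only how far these libraries differ, in part perhaps for technical reasons.

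Layer 5 projection neurons send the long output axons of the cortex, among them the corticospinal axons that drive movement. Such large neurons depend on steady adenosine triphosphate (ATP) supply, on chaperones that keep proteins folded, and on motors that carry cargo along the axon, and inflammation in EAE is known to injure neurons and axons as well as myelin. The comparison asks which RNAs on these ribosomes differed between the late and the early phase of the disease.

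Depth was 11396791 to 19309770 counts in the chronic pulldown libraries and 6198088 to 21229550 in the acute ones, and the number of genes with a count was 10933 to 13746 and 9566 to 17995. Libraries acute 1 and acute 3 held the fewest genes of their group (10174 and 9566), and chronic 4 stood apart in its markers of glia, as described with those markers. The common biological coefficient of variation, a measure of the spread between libraries, was 1.06 in the pulldown and 0.101 in the input. Colgalt2, which drives the tag, averaged 81.0 ± 13.6 CPM (counts scaled to library size) in chronic and 76.8 ± 12.1 CPM in acute pulldown (SD, n = 4 and n = 5). Its log2 change, chronic over acute, was 0.08 ± 0.25 (SE), within the spread between libraries; its sign turned without chronic 1 (-0.02).

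No gene passed the correction in the main comparison. Of 13914 genes tested with edgeR's quasi-likelihood test, 0 were called higher and 0 lower in chronic pulldown (0%, smallest adjusted p = 0.122 after Benjamini-Hochberg correction). At an unadjusted p under 0.05, 355 genes were higher (2.55%) and 790 lower (5.68%) in chronic pulldown. Of the 790, 332 were genes with 0 counts in all 4 chronic libraries, with a median acute mean of 1.1 CPM. The spread was smaller among well-measured genes: a fit restricted to the 4098 genes with a mean of at least 50 CPM over the 14 pulldown libraries had a coefficient of variation of 0.305. In that fit 11 genes were called higher in chronic pulldown (0.268%) and 4 lower (0.0976%) at an adjusted p under 0.05. DESeq2 called 100 higher (1.75%) and 96 lower (1.68%) of 5712 genes that it gave an adjusted p, and limma voom with library weights called 29 higher (0.208%) and 31 lower (0.223%) of 13914.

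**Figure D1:**
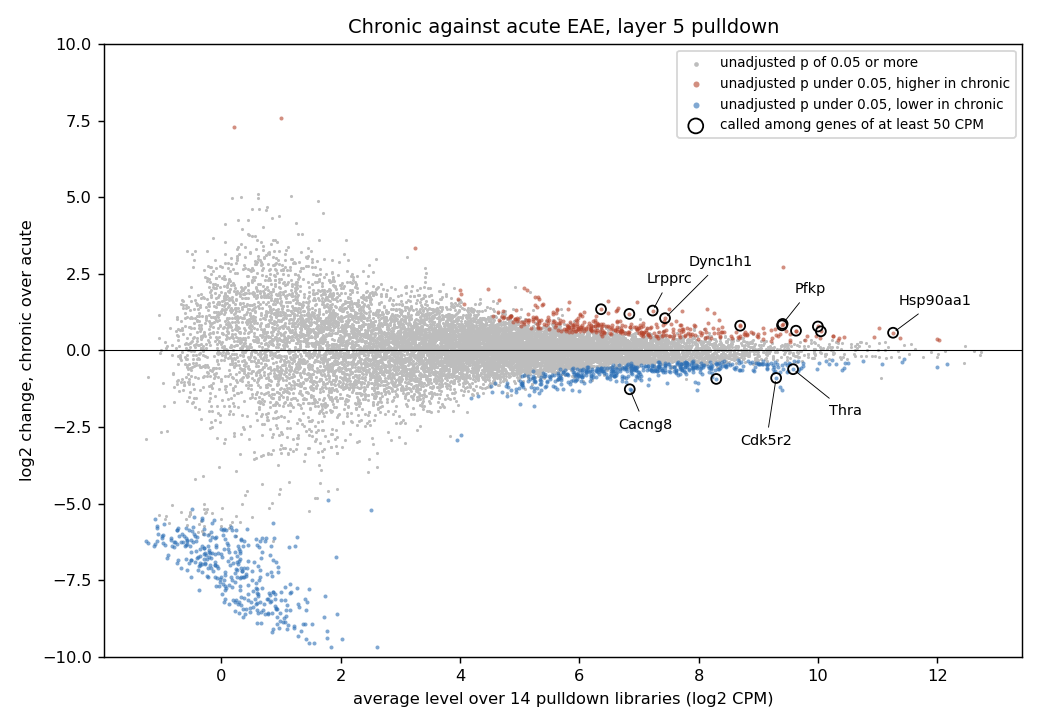
Log2 change of each gene, chronic over acute pulldown, against its average level over 14 pulldown libraries on the log2 CPM scale. Red and blue points have an unadjusted p under 0.05, circles mark the 15 genes called among those with at least 50 CPM, and 2 genes lie outside the axis; the blue cloud at the lower left holds genes with 0 counts in every chronic library, whose fitted change is not a fold.

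All 15 genes called among those with at least 50 CPM were also called by DESeq2 and by voom. These tests use the same libraries, so their calls are not independent. The voom weights were 4.61 for acute 4 and 4.29 for acute 5, against 0.244 to 1.78 for the other acute libraries. Higher in chronic pulldown were Lrpprc, Klhl9, Pfkp, Hsp90aa1, Septin7, Atp6v1a, Dync1h1, Hsph1, Atp6v1h, Nefl and 1 gene with no symbol in the reference used here. Lower were Cdk5r2, Sh3bp1, Cacng8 and Thra. The direction of all 15 was the same in every fit that left out 1 library, while the calls were not: 0 of the 15 passed without acute 3, acute 5, chronic 2 or chronic 4, 3 passed without chronic 3, 8 without acute 4, 9 without acute 2, 14 without chronic 1 and all 15 without acute 1. Without acute 1 and acute 3 together, 13 of the 15 passed. The values below are therefore given per library, and the named genes outside these 15 failed the correction in the edgeR fit of the pulldown over all genes and in that of genes with at least 50 CPM.

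The genes described first are the 10 of smallest p in each direction, taken only from genes whose groups do not overlap. Their lack of overlap was thus fixed by this choice and is no separate evidence. The gene with the smallest p among those higher in chronic pulldown was Lrpprc, whose product binds and stabilises mitochondrial messenger RNAs. It had 191, 356, 246 and 259 CPM in the 4 chronic libraries, against 87.8, 146, 70.9, 118 and 111 CPM in the 5 acute ones. Every chronic library lay above every acute one, and the log2 change was 1.30 ± 0.23 (edgeR adjusted p = 0.122 over all genes and 0.0232 among genes of at least 50 CPM). In healthy pulldown Lrpprc averaged 103 ± 16.2 CPM, and in input its log2 change was 0.12 ± 0.07 (adjusted p = 0.333 in the edgeR fit of input). Klhl9, a substrate adaptor of a cullin ubiquitin ligase, had 169, 199, 167 and 162 CPM in chronic libraries, against 72.6, 100, 46.8, 89.1 and 72.6 CPM in acute ones. The groups did not overlap (log2 change 1.19 ± 0.24). Healthy libraries averaged 104 ± 24.2 CPM.

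Among enzymes of energy metabolism, the call was Pfkp, the platelet-type subunit of phosphofructokinase, which commits glucose to glycolysis. Pfkp had 916, 1400, 885 and 986 CPM in chronic libraries and 605, 650, 391, 595 and 632 CPM in acute ones. The lowest chronic library was above the highest acute one, with a log2 change of 0.86 ± 0.17. The vacuolar proton pump, which spends ATP to acidify lysosomes and synaptic vesicles, gave both Atp6v1a, its catalytic subunit, and Atp6v1h, a regulatory subunit of the same cytosolic sector. Atp6v1a had 1360, 1320, 1790 and 1440 CPM in chronic libraries, against 603, 1050, 755, 1020 and 873 CPM in acute ones (log2 change 0.78 ± 0.16). Atp6v1h ranged from 511 to 718 CPM in chronic libraries and from 214 to 429 CPM in acute ones (0.81 ± 0.18). Neither pump gene overlapped between the phases.

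Both cytosolic chaperones among the calls were abundant. Hsp90aa1, the inducible form of the chaperone HSP90, had 2780, 3430, 3360 and 2870 CPM in chronic libraries and 2020, 2070, 1970, 2210 and 2180 CPM in acute ones. The groups did not overlap, and the log2 change was 0.58 ± 0.12. Hsph1, a nucleotide exchange factor for HSP70, averaged 1100 ± 139 CPM in chronic and 706 ± 89.9 CPM in acute pulldown, with no overlap (0.64 ± 0.14). For the axon and its transport, the calls were Dync1h1, Nefl and Septin7. Dync1h1, the heavy chain of cytoplasmic dynein, the motor for retrograde transport, had 247, 233, 286 and 300 CPM in chronic libraries, against 79.1, 190, 93.4, 144 and 136 CPM in acute ones (1.05 ± 0.23). Nefl, the light neurofilament chain, ranged from 1200 to 1680 CPM in chronic and from 773 to 1070 CPM in acute libraries (0.62 ± 0.14). Septin7, a core subunit of septin filaments, ranged from 848 to 938 CPM in chronic and from 395 to 626 CPM in acute libraries (0.82 ± 0.17). None of these groups overlapped.

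**Figure D2:**
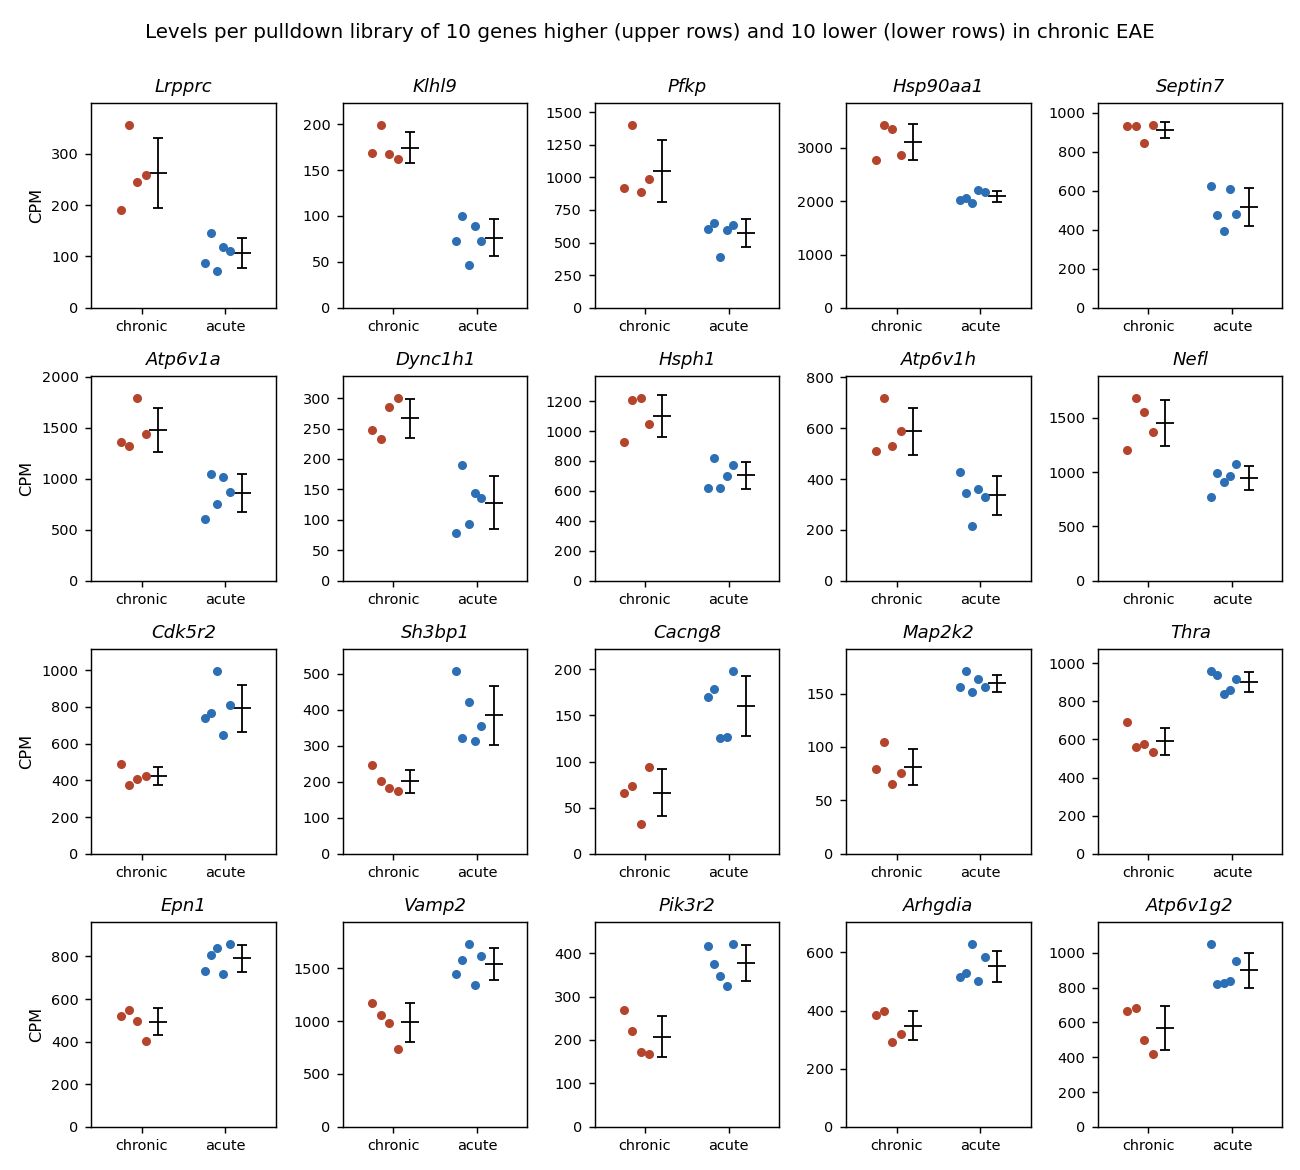
CPM per pulldown library, chronic left and acute right, with the mean and SD beside the points, for the 10 genes with the smallest p higher in chronic pulldown (upper 2 rows) and the 10 lower (lower 2 rows), each of them chosen among genes whose groups do not overlap. Each panel has its own axis from 0.

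Of the genes lower in chronic pulldown, Cdk5r2, which encodes the p39 activator of the neuronal kinase Cdk5, had 488, 377, 408 and 422 CPM in chronic libraries, against 739, 765, 995, 648 and 810 CPM in acute ones. All 4 chronic libraries lay below all 5 acute ones, which the choice of these genes required. The log2 change was -0.90 ± 0.17 (edgeR adjusted p = 0.122 over all genes and 0.0267 among genes of at least 50 CPM). Cacng8, an auxiliary subunit of AMPA-type glutamate receptors, had 65.7, 73.5, 32.0 and 94.4 CPM in chronic libraries and averaged 160 ± 32.1 CPM in acute ones, without overlap. Its log2 change of -1.27 ± 0.27 was the lowest of the 10. Sh3bp1, a GTPase-activating protein for Rac, ranged from 175 to 247 CPM in chronic and from 313 to 508 CPM in acute libraries (-0.93 ± 0.18). Thra, the alpha thyroid hormone receptor, ranged from 534 to 691 CPM in chronic and from 839 to 959 CPM in acute libraries (-0.61 ± 0.13), and averaged 774 ± 82.5 CPM in healthy ones.

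A further 6 lower genes met the naming rule but failed the correction in both edgeR fits. They were Map2k2, a kinase of the ERK pathway (81.2 ± 17.2 CPM in chronic and 160 ± 7.93 CPM in acute pulldown), Epn1, an endocytic adaptor (493 ± 62.9 and 791 ± 63.0), Vamp2, the synaptic vesicle SNARE protein (987 ± 183 and 1540 ± 152), Pik3r2, a regulatory subunit of phosphoinositide 3-kinase (208 ± 47.1 and 377 ± 42.1), Arhgdia, an inhibitor of small GTPases (349 ± 51.0 and 553 ± 52.7), and Atp6v1g2, the neuronal G subunit of the proton pump (568 ± 129 and 898 ± 99.5). Their log2 changes ran from -0.97 ± 0.21 for Map2k2 to -0.65 ± 0.14 for Vamp2. All 6 had an adjusted p under 0.05 by DESeq2 and by voom. For 5 of the 10 lower genes every healthy pulldown library lay above every chronic one. Cdk5r2 was not among these, with 434 to 792 CPM in healthy libraries. For all 10 higher genes every healthy library lay below every chronic one.

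The 20 genes of the naming rule had smaller log2 changes in input than in the pulldown, though most of the lower ones were called there. Input log2 changes ran from -0.10 to 0.20 for the 10 genes higher in chronic pulldown, of which 1, Klhl9, was called in input (0.20 ± 0.04, edgeR adjusted p = 0.00720). For the 10 lower genes they ran from -0.26 to -0.05, all negative, and 6 were called in input: Cdk5r2, Sh3bp1, Map2k2, Thra, Epn1 and Pik3r2. Over all 16381 genes tested in input, 2.95% were called higher and 4.74% lower. The difference between the pulldown and input changes was tested in one edgeR fit of all 28 libraries. No gene of 16580 passed the correction in that interaction (0%, smallest adjusted p = 0.0943), with 2321 (14%) at an unadjusted p under 0.05. With a replicate block for each pulldown and input pair, 890 had an unadjusted p under 0.05. Both fits use 1 spread per gene for pulldown and input, whose coefficients of variation were 1.06 and 0.101, so these p-values may be too small. Without the block, all 20 had an interaction in the direction of their pulldown change, with an unadjusted p of at most 0.00177 and an adjusted p of at least 0.102. The same pulldown libraries chose the 20 genes and enter the interaction, so it is no separate evidence.

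**Figure D3:**
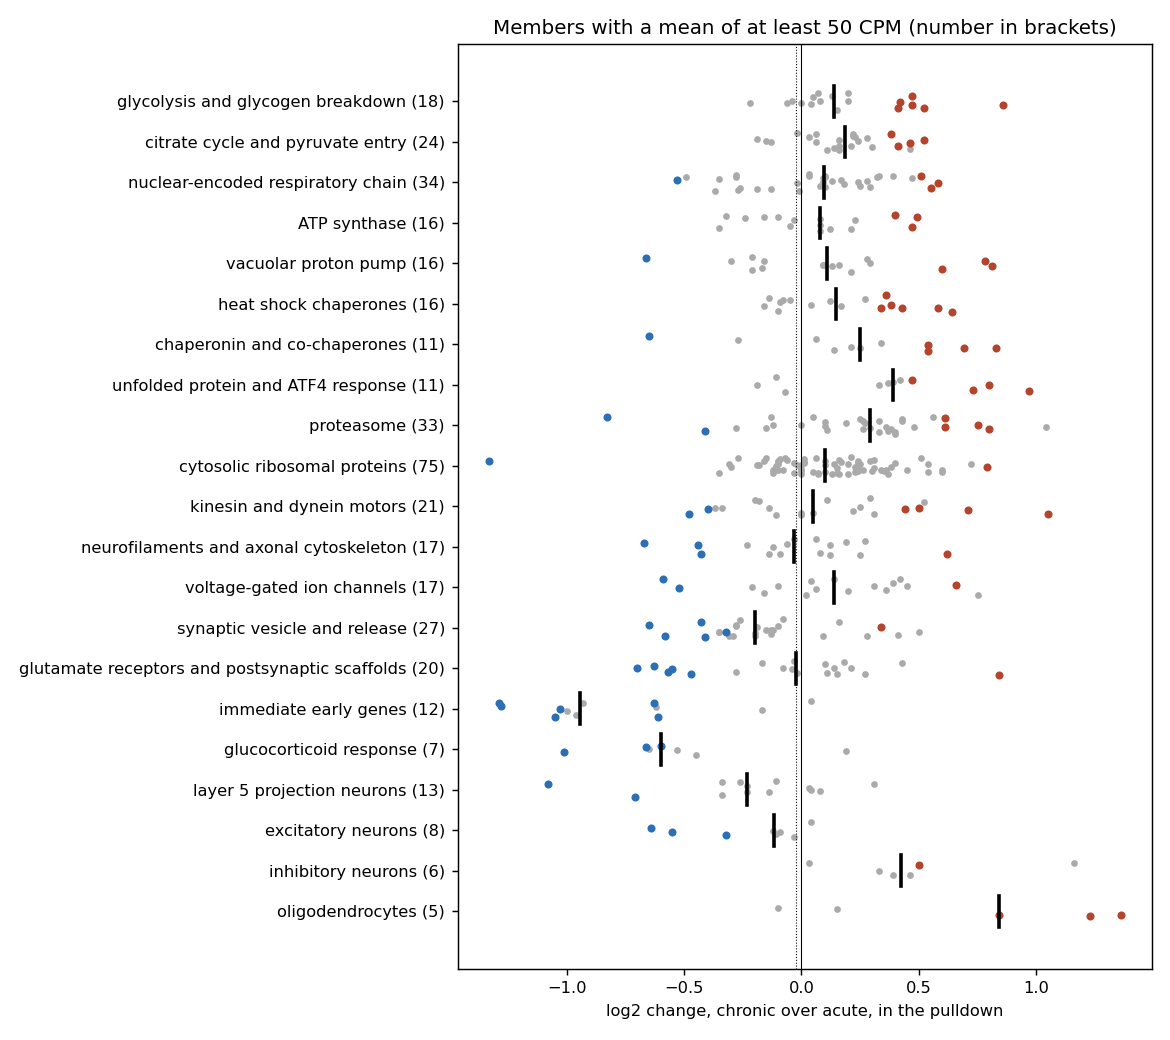
Log2 change, chronic over acute, of every list member with a mean of at least 50 CPM in the pulldown (number in brackets). Red and blue points have an unadjusted p under 0.05, the black bar is the list's median and the dotted line the median of all 4098 such genes (-0.02); immediate early genes lie furthest left and oligodendrocyte markers furthest right of the lists drawn.

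The gene lists were read against these backgrounds: among the 4098 genes with at least 50 CPM, 277 (6.76%) were higher and 384 (9.37%) lower at an unadjusted p under 0.05, 110 (2.68%) had chronic libraries all above and 148 (3.61%) all below the acute ones, and the median log2 change was -0.02. Over all 13914 genes, 241 (1.73%) had chronic libraries all above and 244 (1.75%) all below. List counts below are over members with at least 50 CPM unless said otherwise, and none of these p-values passed the correction over all genes tested. Input counts below are of genes called in the edgeR fit of input, where 2.95% of 16381 genes were called higher and 4.74% lower. Because base composition moved with the comparison, as described below, a fit with an offset for GC content and length was added after the data were seen. Its log2 change is given beside each gene or list median below that it moved by more than 1.5 times.

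In glycolysis and glycogen breakdown, 6 of 18 members were higher and 0 lower at an unadjusted p under 0.05, 15 of 18 changes were positive, and the median was 0.14 (0.29 with the offset). Beside Pfkp these were Pfkm, the muscle-type phosphofructokinase (1330 ± 106 CPM in chronic and 1000 ± 225 CPM in acute pulldown, log2 change 0.41 ± 0.15), Pygb, the brain glycogen phosphorylase (0.52 ± 0.20), the lactate dehydrogenase subunits Ldha (0.47 ± 0.19) and Ldhb, and Aldoc (0.47 ± 0.19). Aldoc is an astrocyte marker as well, and in input its log2 change was -0.28 ± 0.06. Of 24 members of the citrate cycle and pyruvate entry, 4 were higher and 0 lower, and 20 changes were positive (median 0.187, and 0.0958 with the offset). Sucla2, a subunit of succinate-CoA ligase, averaged 362 ± 46.1 CPM in chronic and 271 ± 22.3 CPM in acute pulldown (0.41 ± 0.16, and 0.27 with the offset), and Fh1, fumarate hydratase, 252 ± 67.1 and 176 ± 37.0 CPM (0.52 ± 0.21), both without overlap. In input, 5 of 20 tested glycolysis genes and 5 of 27 citrate cycle genes were called lower in the chronic phase and 0 higher.

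The respiratory chain, which feeds on the citrate cycle, was mixed: of 34 nuclear-encoded members 3 were higher and 1 lower, with a median of 0.09. Uqcrc2 and Uqcrc1, the core proteins of complex III, were 2 of those higher (0.58 ± 0.18 and 0.51 ± 0.19). Uqcrc2 ranged from 361 to 512 CPM in chronic and from 229 to 306 CPM in acute libraries. Of 16 ATP synthase members 3 were higher and 0 lower (median 0.08). The catalytic subunit Atp5b had between 3190 and 3330 CPM in chronic and between 1690 and 2880 CPM in acute libraries, which did not overlap (0.40 ± 0.14).

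The vacuolar proton pump moved unevenly between subunits. Of its 16 members 3 were higher, Atp6v1a, Atp6v1h and the accessory subunit Atp6ap2 (352 ± 60.2 CPM in chronic and 231 ± 46.5 CPM in acute pulldown, 0.60 ± 0.20, and 0.40 with the offset), and 1, Atp6v1g2, was lower (-0.66 ± 0.15). All 4 had no overlap between phases. The other 12 had an unadjusted p above 0.05, and the median of the list was 0.11.

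Among 16 heat shock chaperones 6 were higher and 0 lower at an unadjusted p under 0.05, with a median of 0.15 (0.02 with the offset, against 0.01 for all genes of that level). Beside Hsp90aa1 and Hsph1 they were Hsp90ab1, the constitutive HSP90 (5090 ± 1060 CPM in chronic and 4030 ± 376 CPM in acute pulldown, 0.34 ± 0.13), the HSP70 proteins Hspa8 (0.36 ± 0.17) and Hspa9 of the mitochondrion (0.38 ± 0.16), and the exchange factor Hspa4 (0.43 ± 0.18), whose chronic value in library 3 (878 CPM) stood above the next (583 CPM). The strongly stress-inducible pair Hspa1a and Hspa1b had log2 changes of -0.16 and -0.37 (0.11 and -0.15 with the offset). Of 11 members of the cytosolic chaperonin and its partners, 4 were higher and 1 lower (median 0.25, and 0.11 with the offset). Cct5 had 382 ± 81.4 CPM in chronic and 236 ± 60.6 CPM in acute pulldown (0.69 ± 0.19), Cct6a 263 ± 45.1 and 147 ± 52.3 CPM (0.83 ± 0.26), and Tcp1 310 ± 53.1 and 212 ± 49.5 CPM (0.54 ± 0.19, and 0.33 with the offset). All are subunits of the ring that folds actin and tubulin.

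In the list of the unfolded protein and ATF4 responses, 4 of 11 were higher and 0 lower (median 0.39). These included enzymes of serine and asparagine synthesis that ATF4 is known to induce: Psat1 averaged 147 ± 28.9 CPM in chronic and 74.9 ± 20.4 CPM in acute pulldown (0.97 ± 0.23), Asns 329 ± 33.9 and 198 ± 69.9 CPM (0.73 ± 0.24), and Phgdh 111 ± 27.3 and 63.3 ± 20.9 CPM (0.80 ± 0.30). Psat1 had 107, 156, 176 and 147 CPM in chronic libraries and 56.7, 78.2, 55.8, 106 and 77.9 CPM in acute ones, just without overlap, and DESeq2 called it (adjusted p = 0.00101). Hspa5, the chaperone of the endoplasmic reticulum, was the fourth (0.47 ± 0.22). Atf4 itself had a log2 change of -0.07 and the stress factor Ddit3 of 0.06 (0.03 and -0.13 with the offset). Phgdh is also expressed by astrocytes, whose markers summed to 1530 to 3200 CPM in chronic and 1620 to 2380 CPM in acute pulldown. Their part in the change of Phgdh was not tested.

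Of 33 proteasome subunits and activators 4 were higher and 2 lower, and 27 of the 33 changes were positive (median 0.29). Psmd2 and Psmd1, the scaffold subunits of the regulatory particle, averaged 540 ± 69.4 CPM in chronic and 353 ± 66.6 CPM in acute pulldown (0.61 ± 0.16) and 160 ± 28.1 and 105 ± 13.3 CPM (0.61 ± 0.20). Psmc6, an ATPase subunit, had a log2 change of 0.80 ± 0.29 (0.53 with the offset). Psme3, which encodes the nuclear activator PA28 gamma, was lower, at 122, 56.6, 61.8 and 89.0 CPM in chronic libraries against 168, 158, 139, 123 and 145 CPM in acute ones (-0.83 ± 0.23). In input, 7 of 35 proteasome genes were called lower and 0 higher, with a median of -0.07. Of 75 cytosolic ribosomal protein genes 1 was higher, Rps3 (0.79 ± 0.23), and 1 lower, Rps29 (-1.33 ± 0.55), whose acute 1 value of 205 CPM stood above the next (75.2 CPM); genes of this family share reads with pseudogenes and are uncertain. Of 28 translation factors 1 was higher, Eif4a2, an RNA helicase of initiation (0.65 ± 0.19, and 0.41 with the offset).

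Of 27 synaptic vesicle and release genes 5 were lower and 1 higher, and 21 changes were negative (median -0.20, and -0.07 with the offset). Vamp2 had 1170, 1060, 981 and 739 CPM in chronic libraries and 1450, 1580, 1730, 1340 and 1620 CPM in acute ones, with no overlap (-0.65 ± 0.14). The vesicular glutamate transporter Slc17a7 averaged 1100 ± 107 CPM in chronic and 1370 ± 169 CPM in acute pulldown (-0.32 ± 0.14, and -0.12 with the offset). Syp, which encodes the vesicle protein synaptophysin, was the 1 that was higher (0.34 ± 0.14, and 0.22 with the offset). Of 20 glutamate receptors and postsynaptic scaffolds 5 were lower and 1 higher, and the median of -0.02 was that of all genes of this level (0.05 with the offset). Over all 28 members tested 15 changes were positive and 13 negative (median 0.10). Dlg4, the scaffold PSD-95, had 580, 387, 419 and 450 CPM in chronic libraries and 478, 954, 813, 678 and 808 CPM in acute ones. The ranges overlapped through acute 1 (-0.70 ± 0.18). The AMPA receptor subunit Gria2 was higher (349 ± 112 CPM in chronic and 195 ± 63.6 CPM in acute pulldown, 0.84 ± 0.26, and 0.46 with the offset).

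Motors and the axonal cytoskeleton held members in both directions. Of 21 kinesin and dynein genes 4 were higher and 2 lower (median 0.05, and 0.10 with the offset): beside Dync1h1, the kinesins Kif5c (863 ± 133 CPM in chronic and 527 ± 169 CPM in acute pulldown, 0.71 ± 0.21) and Kif1b (0.50 ± 0.24) were higher, while the kinesin light chain Klc2 was lower (-0.48 ± 0.16, and -0.16 with the offset). Kif5c was also called higher in chronic input (0.19 ± 0.04, edgeR adjusted p = 0.00926). Of 17 neurofilament and cytoskeletal genes 1 was higher, Nefl, and 3 were lower, among them Mapt, which encodes tau (482 ± 56.1 and 655 ± 117 CPM, -0.44 ± 0.15). The neurofilament partners of Nefl, Nefm and Nefh, had log2 changes of 0.06 and -0.23 (0.32 and 0.06 with the offset). Of 4 axon injury response genes with at least 50 CPM 2 were lower, the growth-associated Basp1 (-0.40 ± 0.14, and -0.24 with the offset) and Gap43 (-0.38 ± 0.18).

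Of 17 voltage-gated channel genes 1 was higher and 2 lower (median 0.14). Cacnb3, a calcium channel beta subunit, averaged 234 ± 37.6 CPM in chronic and 336 ± 34.1 CPM in acute pulldown (-0.52 ± 0.17, and -0.17 with the offset). Scn2a, a sodium channel pore subunit, was higher (0.66 ± 0.29, and 0.44 with the offset). Of 26 calcium and kinase signalling genes 3 were higher and 5 lower. Ppp3ca, the catalytic subunit of calcineurin, had 2160, 2570, 2100 and 2600 CPM in chronic libraries and 1840, 1750, 1650, 1870 and 1600 CPM in acute ones, without overlap (0.44 ± 0.11), and was called higher in input as well (0.29 ± 0.04, edgeR adjusted p = 0.000388). Calm3, a calmodulin gene, was lower (-0.39 ± 0.13, and -0.15 with the offset). Of 24 genes for RNA binding and splicing 0 were higher and 3 lower, and 18 changes were negative (median -0.17, and -0.27 with the offset), with Rbfox3, which encodes the neuronal nuclear antigen NeuN, at 389 ± 77.0 CPM in chronic and 568 ± 32.7 CPM in acute pulldown (-0.55 ± 0.17, and -0.26 with the offset).

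Immediate early genes, which neurons transcribe within minutes of activity, had the lowest median of the lists drawn. Of 12 members 6 were lower and 0 higher at an unadjusted p under 0.05, 11 of 12 changes were negative, and the median was -0.95. Egr4 had 151, 93.0, 106 and 82.0 CPM in chronic libraries and 239, 312, 182, 158 and 227 CPM in acute ones, with no overlap (-1.05 ± 0.28). Egr1 averaged 275 ± 27.9 CPM in chronic and 428 ± 87.4 CPM in acute pulldown (-0.63 ± 0.19), Junb 150 ± 30.0 and 306 ± 113 CPM (-1.03 ± 0.34), Jund 146 ± 20.2 and 222 ± 31.8 CPM (-0.61 ± 0.20), and Arc, an effector of synaptic plasticity, 139 ± 65.6 and 338 ± 116 CPM (-1.29 ± 0.49). In healthy pulldown Egr1 averaged 504 ± 117 CPM and Arc 254 CPM. Arc split the acute libraries: acute 1, 2 and 3 had 414, 424 and 427 CPM, while acute 4 and 5 had 188 and 237 CPM, within reach of chronic 4 at 233 CPM. With the offset the median of the list was -0.58, Egr4 was at -0.56, Egr1 at -0.39, Junb at -0.61, Jund at -0.13 and Arc at -0.97. In input 2 of 20 members were called lower and 0 higher (median -0.39).

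Of 7 glucocorticoid-responsive genes 3 were lower and 0 higher, and 6 changes were negative (median -0.60). Ddit4, which restrains mTORC1, averaged 47.7 ± 27.9 CPM in chronic and 95.8 ± 19.4 CPM in acute pulldown (-1.01 ± 0.36), Tsc22d3, which encodes GILZ, 46.5 ± 9.73 and 73.4 ± 25.1 CPM (-0.66 ± 0.27), and the clock gene Per1 121 ± 8.64 and 183 ± 62.3 CPM (-0.60 ± 0.26, and -0.25 with the offset). All 3 overlapped between phases. In input 10 of 16 members were called lower and 0 higher in the chronic phase, with a median of -0.59. Ddit4 fell there by 0.87 ± 0.15 on the log2 scale (edgeR adjusted p = 0.00441) and Tsc22d3 by 0.41 ± 0.09 (0.0150).

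Interferon-response genes, which are switched on in inflamed tissue, were all under 50 CPM in the pulldown. Over the 31 tested, 4 were lower (against 5.68% of all genes) and 0 higher (against 2.55%) at an unadjusted p under 0.05, 25 changes were negative, and the median was -0.58 (-1.04 without chronic 2), against 0.02 for all genes. In input, 33 of the 34 members were called lower in the chronic phase and 0 higher, with a median of -1.58. The interferon-inducible GTPase Irgm1 had 28.3 ± 15.7 CPM in chronic and 67.2 ± 25.0 CPM in acute pulldown (-1.24 ± 0.79), and 10 of 11 GTPases had negative changes. The deposited counts cannot tell fewer cells of a type from less RNA per cell.

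Sting1, which encodes the adaptor of cytosolic DNA sensing that the title of the series names, did not pass the filter on low counts. It had 0, 7.0, 17.5 and 2.96 CPM in the 4 chronic libraries, from 0, 91, 205 and 56 counts, against 0, 0, 0, 0.532 and 0.179 CPM in the 5 acute ones, from 0, 0, 0, 11 and 3 counts. All 5 healthy libraries had 0 counts. The means were 6.88 ± 7.67 CPM in chronic and 0.142 ± 0.231 CPM in acute pulldown, and an exact two-sided permutation test of the difference of 6.74 CPM gave p = 0.0476, where the smallest p that the design allows is 0.00794. The groups overlapped, since chronic 1 had no count, and the p was above 0.05 in 8 of the 9 tests that left out 1 library. In input Sting1 had 1.71 ± 0.720 CPM in chronic and 2.14 ± 0.619 CPM in acute libraries (log2 change -0.32 ± 0.30, edgeR adjusted p = 0.575). Microglia express this gene, and the summed microglial markers of the 4 chronic libraries, in the same order, were 54.0, 59.9, 59.2 and 240 CPM; their part in the result was not tested. Cgas, the DNA sensor upstream of Sting1, was at 0 in all 4 chronic libraries and at 0 to 1.38 CPM in acute ones.

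Lipid peroxidation can kill cells by ferroptosis, and Gpx4, the peroxidase that restrains it, had 304, 313, 190 and 136 CPM in chronic libraries and 322, 107, 63.4, 159 and 158 CPM in acute ones. The groups overlapped widely (log2 change 0.54 ± 0.34, edgeR adjusted p = 0.899). With the offset the log2 change of Gpx4 was 0.91, which also failed the correction (edgeR adjusted p = 0.25 over all genes and 0.0727 among genes of at least 50 CPM). Of 14 ferroptosis and antioxidant genes with at least 50 CPM, 0 were higher and 0 lower at an unadjusted p under 0.05 (median 0.0627, and 0.165 with the offset). Acsl4, which loads membranes with the lipids that peroxidise, lay under that level, at 69.1 ± 19.5 CPM in chronic and 34.4 ± 14.9 CPM in acute pulldown (1.01 ± 0.39). Of 7 cholesterol synthesis genes 1 was higher, Hmgcs1 (0.61 ± 0.20), and of 16 autophagy and lysosome genes 1 was higher and 2 were lower, Atg12 (-1.0 ± 0.37) and Gabarap (-0.68 ± 0.28), both of which had their highest value in acute 1.

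Markers of cell types were also compared between the phases. Of 13 layer 5 projection neuron markers with at least 50 CPM 2 were lower and 0 higher (median -0.23): Pou3f1 averaged 162 ± 63.1 CPM in chronic and 341 ± 101 CPM in acute pulldown (-1.08 ± 0.26, and -0.70 with the offset), and Fezf2, a factor needed for their identity, 169 ± 75.4 and 276 ± 60.9 CPM (-0.71 ± 0.25). The summed CPM of all 26 layer 5 markers was 1900 to 2630 in chronic, 2500 to 3000 in acute and 1920 to 2440 in healthy pulldown. In input it was 1510 to 1580 in chronic and 1560 to 1640 in acute libraries. The layer 5 sum was thus above input in every chronic and acute pulldown library, lowest in chronic 4. For some other cells the range of the marker sums in chronic pulldown overlapped that of input. In chronic pulldown and chronic input, inhibitory neuron markers summed to 1150 to 1760 and 1380 to 1610 CPM. Astrocyte markers summed to 1530 to 3200 and 1940 to 2930 CPM, and microglial markers to 54.0 to 240 and 107 to 218 CPM. For inhibitory neurons and microglia, chronic 4 lay above the input range and the other chronic libraries below it. Oligodendrocyte markers summed to 2920 to 4370 CPM in chronic input, a range that only chronic 4 reached (3100 CPM). In acute pulldown and acute input, inhibitory neuron markers summed to 714 to 1110 and 1390 to 1640 CPM. Acute astrocyte sums were 1620 to 2380 and 2080 to 2900 CPM, and microglial ones 10.9 to 91.8 and 130 to 187 CPM. Of 8 excitatory neuron markers 3 were lower, with Nrgn, a postsynaptic calmodulin-binding protein (3060 ± 963 and 4480 ± 650 CPM, -0.55 ± 0.18), Neurod2 (-0.64 ± 0.25, and -0.37 with the offset) and Slc17a7, and their sum was 7060 to 9440 CPM in chronic and 9160 to 10500 CPM in acute libraries.

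The summed markers of inhibitory neurons and of oligodendrocytes were higher in chronic than in acute pulldown. In healthy pulldown these sums were 717 to 992 CPM and 1070 to 1420 CPM. Inhibitory neuron markers summed to 1150, 1250, 1260 and 1760 CPM in chronic libraries and to 714, 1100, 811, 1110 and 1110 CPM in acute ones, without overlap, and 10 of 12 changes were positive. Gad1, the main enzyme of GABA synthesis, averaged 623 ± 82.2 CPM in chronic and 440 ± 96.2 CPM in acute pulldown (0.50 ± 0.19). Rasgrf2, a marker of upper layers, had 159, 157, 151 and 199 CPM in chronic libraries and 81.0, 129, 102, 106 and 76.2 CPM in acute ones (0.75 ± 0.21). It was the 1 of 5 upper layer and layer 6 markers with at least 50 CPM that was higher, the median of the 5 was 0.04 (0.10 with the offset), and the summed markers overlapped (1070 to 1270 CPM in chronic and 869 to 1160 CPM in acute libraries).

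Oligodendrocyte markers summed to 1300, 1600, 1250 and 3100 CPM in chronic libraries and to 904, 1000, 855, 1210 and 1150 CPM in acute ones. The groups did not overlap, with or without chronic 4, whose sum was the highest. Of all 13 markers, which were all tested, 6 were higher and 0 lower at an unadjusted p under 0.05, and the median was 0.84. Over the 5 with at least 50 CPM the median was also 0.84, and 0.67 without chronic 4. Cnp, an enzyme of the myelin sheath, had 516, 651, 431 and 806 CPM in chronic and 395, 348, 239, 349 and 343 CPM in acute libraries (0.84 ± 0.20). Mag, a myelin adhesion protein, averaged 157 ± 91.9 and 66.9 ± 26.1 CPM (1.23 ± 0.36), and Mog, the source of the immunising peptide, 29.8 ± 13.8 and 8.39 ± 2.55 CPM (1.83 ± 0.69). In input 3 of 13 were called higher in the chronic phase and 0 lower (median 0.44). The part of these markers in the other results was not tested.

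Of the remaining types, microglial markers summed to 54.0 to 240 CPM in chronic and 10.9 to 91.8 CPM in acute libraries, and 11 of 13 changes were positive with a median of 1.22, which was -0.02 without chronic 4. Csf1r, the growth factor receptor of microglia, had 8.35, 25.6, 19.1 and 63.3 CPM in chronic and 0, 15.7, 0, 13.1 and 28.8 CPM in acute libraries (1.33 ± 1.20). Astrocyte markers summed to 1530 to 3200 CPM and 1620 to 2380 CPM. Markers of infiltrating leukocytes summed to 0 to 17.7 CPM and 0 to 17.1 CPM, with Cd3d of T cells and Ms4a1 of B cells at 0 in all 9 libraries.

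**Figure D4:**
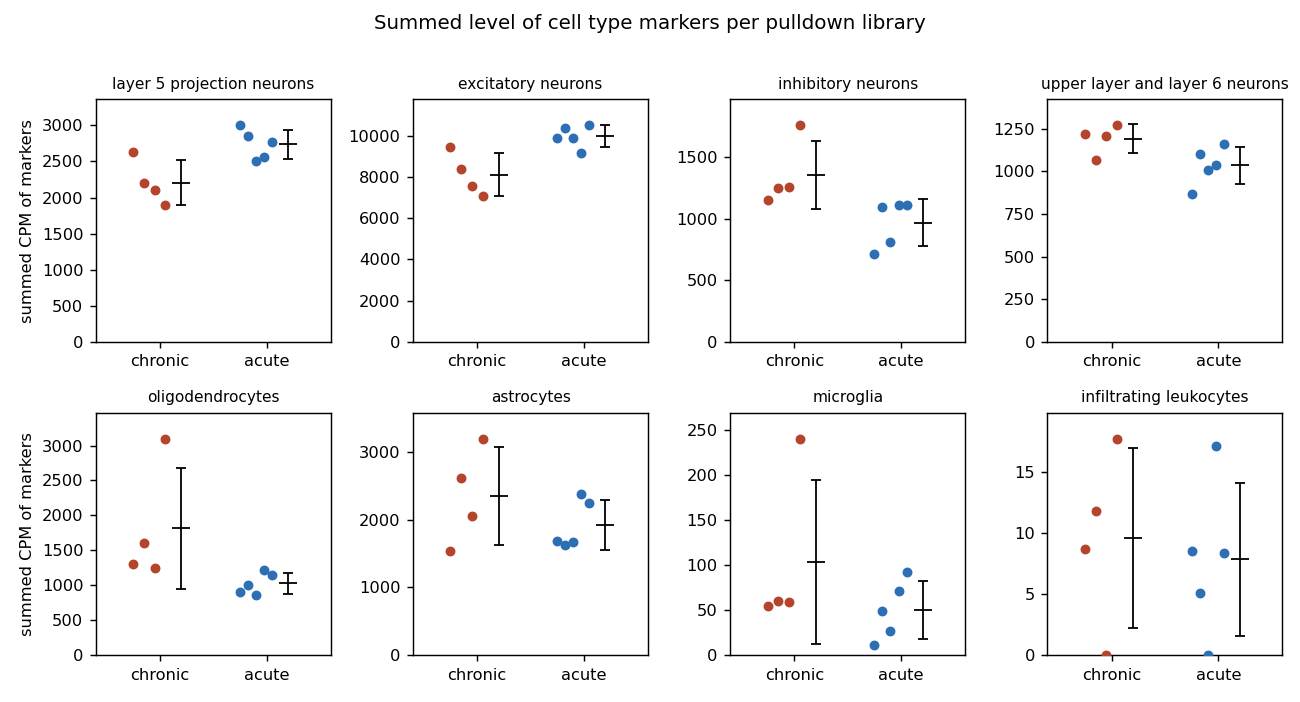
Summed CPM of each list of cell type markers per pulldown library, chronic left and acute right, with the mean and SD beside the points and each axis from 0. Oligodendrocyte and inhibitory neuron sums do not overlap between the phases, and chronic 4 is the highest library for oligodendrocytes (3100 CPM) and microglia (240 CPM).

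Base composition moved with the comparison. Across 4093 genes with at least 50 CPM and a GC value, the log2 change correlated with the GC content of the longest transcript (Pearson's r = -0.395, given as a description, since genes of the same libraries are not independent). In 5 groups of these genes, ordered by GC content with the poorest first, the median log2 change was 0.15, 0.12, -0.02, -0.10 and -0.27. In the poorest group 109 of 819 genes were higher and 21 lower in chronic pulldown at an unadjusted p under 0.05, and in the richest 6 of 819 were higher and 193 lower. Per library, the correlation across genes of the level (relative to the mean of the libraries) with GC content was negative in all 4 chronic libraries (-0.198 to -0.0529) and positive in all 5 acute ones (0.0248 to 0.465), with an exact two-sided permutation p = 0.0159, or 0.111 after Benjamini-Hochberg adjustment over 7 library measures. Healthy pulldown libraries, which are part of the same mean, ran from -0.325 to 0.17 and overlapped both phases. In input the log2 change, chronic over acute, also fell with GC content across genes (r = -0.441).

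The 10 higher genes of the naming rule had a transcript GC content of 35.7% to 53.7% and the 10 lower ones of 51.4% to 65.1%. To show what this contrast looks like, the middle 120 bases of the coding sequence are printed for the 2 genes with the smallest p in each direction among these 20, from the GENCODE M21 transcripts on GRCm38, 5′ to 3′ on the coding strand, with G and C in capitals. Lrpprc (minus strand, chr17:84705247-84790789, coding bases 2029 to 2148 of 4176) and Klhl9 (minus strand, chr4:88718292-88722465, coding bases 866 to 985 of 1851) were higher. Cdk5r2 (plus strand, chr1:74854934-74857732, coding bases 494 to 613 of 1107) and Sh3bp1 (plus strand, chr15:78899667-78919517, coding bases 961 to 1080 of 2040) were lower. The stretches hold 48.3%, 44.2%, 74.2% and 60% GC, close to the whole coding sequences at 47.1%, 44.7%, 70.6% and 60%.
Lrpprc: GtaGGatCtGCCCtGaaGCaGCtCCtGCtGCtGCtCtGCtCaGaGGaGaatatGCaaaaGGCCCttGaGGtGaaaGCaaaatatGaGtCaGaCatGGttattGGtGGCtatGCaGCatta
Klhl9: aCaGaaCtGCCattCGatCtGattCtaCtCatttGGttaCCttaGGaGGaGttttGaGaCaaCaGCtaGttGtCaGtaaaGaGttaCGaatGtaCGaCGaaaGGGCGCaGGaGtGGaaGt
Cdk5r2: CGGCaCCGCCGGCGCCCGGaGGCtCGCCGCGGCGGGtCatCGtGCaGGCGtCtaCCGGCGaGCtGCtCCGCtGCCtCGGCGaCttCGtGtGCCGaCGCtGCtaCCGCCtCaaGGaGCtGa
Sh3bp1: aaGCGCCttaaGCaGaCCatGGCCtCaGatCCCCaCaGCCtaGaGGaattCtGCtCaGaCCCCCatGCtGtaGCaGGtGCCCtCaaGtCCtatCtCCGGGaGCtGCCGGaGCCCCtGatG

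With the offset for GC content and length in the fit of genes with at least 50 CPM, 9 of the 11 higher calls still passed and 0 of the 4 lower ones. Pfkp (adjusted p = 0.0920) and Atp6v1h (0.274) no longer passed, nor did Cdk5r2 (0.166), Sh3bp1 (0.0920), Cacng8 (0.145) and Thra (0.286) in that edgeR fit. Over all genes the offset took Atp6v1h to a log2 change of 0.45, Septin7 to 0.47, Cdk5r2 to -0.48, Cacng8 to -0.82, Epn1 to -0.31, Pik3r2 to -0.51, Arhgdia to -0.38 and Thra to -0.31, while Lrpprc was at 1.22, Dync1h1 at 1.07 and Atp6v1g2 at -0.68. All 20 genes kept the sign of their change. The offset fit called 24 genes, 17 higher and 7 lower, among them Vamp2, Atp6v1g2 and Dlg4 (lower) and Tuba1a, Pfkm, Ldhb, Kif5c and Cnp (higher); Tuba1a, an alpha-tubulin gene chosen after its values were seen, was the 1 gene that passed over all genes with the offset (log2 change 0.80, adjusted p = 0.0133).

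**Figure D5:**
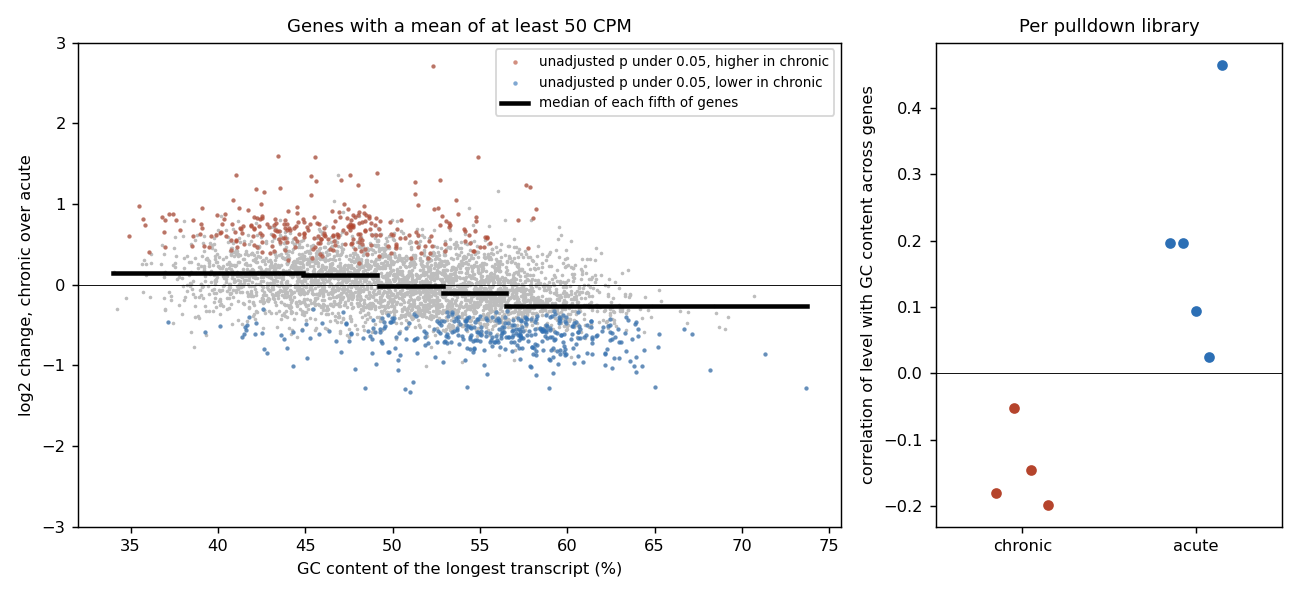
Left, log2 change, chronic over acute, against the GC content of the longest transcript for genes with a mean of at least 50 CPM; black bars are the medians of 5 groups ordered by GC content, from 0.15 in the poorest to -0.27 in the richest. Right, correlation of level with GC content across genes in each library, chronic (all below 0) left and acute (all above 0) right.

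The input libraries, which hold the whole cortex, separated the phases more clearly: 483 genes were called higher (2.95%) and 776 lower (4.74%) in chronic input among 16381 tested with edgeR. Of the 776, 692 were tested in the pulldown and 71.5% of these had a negative change there, and of the 483, 458 were tested and 31.2% had a negative one, against 48.4% of all genes. Over the 527 genes called in input that had at least 50 CPM in the pulldown, the correlation of the changes was r = 0.525 across genes, given as a description.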

How the data were processed

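The deposited table holds raw counts of read pairs per gene for 28 libraries (0 count columns unmapped), made per the file headers with featureCounts 1.5.1 over the exons of Ensembl release 79 on GRCm38, without a strand option, so a gene and an antisense partner cannot be told apart. Reads were aligned with STAR 2.4, per the submitters' processing notes, and RNA was enriched for poly A, per the labels' protocols. Symbols were taken from GENCODE M21 and RefSeq (42462 of 43629 genes, 97.3%). The deposited gene length was used for the length offset.

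Genes passed filterByExpr (minimum count 10, minimum total 15). The 14 pulldown libraries of the healthy, acute and chronic groups were scaled by TMM and fitted with edgeR 4.0.16 (robust quasi-likelihood F test), and the contrast was chronic minus acute. Input and the interaction were fitted likewise. Adjusted p-values are Benjamini-Hochberg over all genes of a fit, with a threshold of 0.05. CPM values use TMM library sizes, and SE is that of the log2 change. DESeq2 1.42.0 and limma 3.58.1 voom were alternatives, run in R 4.3.3. The tests were checked on simulated counts, which held no trend with GC content such as the pulldown libraries showed. Single values used an exact permutation of the libraries. No library pair differed by less than sampling noise (chi-square per degree of freedom 25.5 to 177).

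The members and gene lists (46 lists, 924 of 930 entries found) were chosen with earlier results of these data known. The naming rule took, per direction, the 10 genes of smallest p with non-overlapping groups and an average log2 CPM of at least 1, up to 4 genes of smallest p per list, and Sting1, Gpx4 and Colgalt2; genes without a settled symbol were not named. Of the genes named beyond that rule, Pygb, Ldha, Ldhb, Hsp90ab1, Hspa8, Hspa4, Hspa9, Hspa1a, Hspa1b, Tcp1, Phgdh, Hspa5, Atf4, Ddit3, Psmd1, Psmc6, Atp6ap2, Kif1b, Klc2, Nefm, Nefh, Syp, Slc17a7, Scn2a, Mog, Arc, Junb, Jund, Per1 and Sptan1 were chosen after their values were seen. Results for some genes are not reported here.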

Additional observations from a re-analysis of the deposited data

Results flagged for a closer look

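In 17 of 232 groups of 4 or 5 libraries tested for the named genes and marker sums, 1 library stood apart from its group by Dixon's criterion, which chance alone meets in about 1 in 20 groups. In each case the value of that library is given with the nearest other value of its group.

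Chronic 4 stood above the other chronic libraries for Rasgrf2 (199 CPM, next 159), Sptan1 (4240 CPM, next 584), the microglial marker sum (240 CPM, next 59.9) and the sum of oligodendrocyte precursor markers (269 CPM, next 130). Chronic 3 was high for Hspa4 (878 CPM, next 583) and low for Septin7 (848 CPM, next 932) and the endothelial and mural marker sum (59.3 CPM, next 120). Chronic 2 was high for Uqcrc2 (512 CPM, next 387). Chronic 1 was high for Neurod2 (216 CPM, next 113) and low for Hspa1a (22.5 CPM, next 34.6).

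Acute 3 was low for Pfkp (391 CPM, next 595), Fh1 (110 CPM, next 185) and Calm3 (2390 CPM, next 2950). Acute 1 was high for Rps29 (205 CPM, next 75.2), Atg12 (117 CPM, next 59.7) and Gabarap (252 CPM, next 154) and low for Acsl4 (8.52 CPM, next 38.3).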

How the results depend on the processing

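The count of calls in the pulldown, 0 higher and 0 lower with edgeR over all genes (355 and 790 at an unadjusted p under 0.05), depended on the test and the genes fitted. It was 11 and 4 among genes with at least 50 CPM, 100 and 96 with DESeq2, and 29 and 31 with voom. It was 374 and 1388 with all 28 libraries in one fit, and 1 and 0 with the offset for GC content and length. The cause of these differences was not tested. The fit of all 28 libraries uses 1 spread per gene for pulldown and input, whose coefficients of variation were 1.06 and 0.101. Its p-values for the pulldown may therefore be too small. Leaving out any 1 library kept the main count at 0 and 0. In the fit of genes with at least 50 CPM, leaving out 1 library gave 0 to 71 higher and 0 to 44 lower calls, both highest without acute 1. That fit called 17 and 7 with the offset, and 28 and 5 without acute 1 and acute 3. The offset, the fits without both libraries and the single libraries left out of the 50 CPM fit were chosen after seeing the data. Leaving out 1 input library gave 259 to 481 higher and 525 to 709 lower input genes. The interaction had 0 to 19 calls when 1 replicate was left out, 4 without chronic 1 and 19 without acute 1.

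For Sting1 the difference ran from 3.18 to 9.03 CPM when 1 library was left out, with an exact permutation p of 0.0179 to 0.143. Signs turned for genes near 0. With 1 library left out, the log2 change ran from -0.02 to 0.17 for Colgalt2, from -0.04 to 0.13 for Nefm, from -0.10 to 0.21 for Ddit3 and from -0.15 to 0.01 for Atf4. With the offset it was 0.06 for Nefh, -0.13 for Ddit3, 0.11 for Hspa1a and 0.03 for Atf4, and without acute 1 and acute 3 it was 0 for Colgalt2. The median over all genes tested, 0.02, was -0.28 with voom and -0.10 without the filter.

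Chronic and acute pulldown libraries with the same replicate number did not deviate together (correlations of 0.113, -0.307, 0.0917 and -0.00773), so the numbers were not taken to pair them. Whether pulldown and input libraries of the same number deviate together was not tested. With the replicate number as a block, 0 and 0 genes were called in the pulldown and 370 and 561 in input, and with a replicate block for each pulldown and input pair the interaction had 0 calls. Depth limits the statements on genes of few counts, such as Sting1.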

Other observations

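Sptan1, which encodes the alpha chain of non-erythroid spectrin, had 584, 292, 345 and 4240 CPM in the 4 chronic libraries, against 174, 276, 195, 229 and 168 CPM in the 5 acute ones, and 362 to 835 CPM in healthy ones. It was the 1 gene with at least 50 CPM whose log2 change passed 2 (2.71 ± 0.62, edgeR adjusted p = 0.184), and its log2 change was 0.96 without chronic 4.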
